A study of Homo sapiens with 6 samples.

Results

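The collagen chain genes were taken as the protein-coding genes whose symbol consists of COL, a collagen number, A and a chain number, and 40 of the 30330 genes in the deposited tables met this rule. The study compared H1975/OSI, an osimertinib-resistant derivative, with its parent NCI-H1975, a human lung adenocarcinoma line; osimertinib inhibits the epidermal growth factor receptor kinase. The resistant libraries (3, titled Drug) came from 1 derivative line that had been taken through osimertinib at 0.03, 0.1, 0.3, 1 and 3 µM over 7 months, and the control libraries (3) came from NCI-H1975. The labels do not say whether the drug was present at harvest, and nothing in them ties the libraries of a group to separate cultures. All p-values therefore reflect the spread among these 6 libraries alone, and that spread may be technical. Values are normalized read counts, the reads of a gene after scaling of its library by a single size factor. Resistant libraries held 15174126 to 16276518 reads, and control libraries held 15813497 to 16588479.

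Collagens are trimers of alpha chains wound into a triple helix, and each chain is made from its own gene. Fibrillar collagens are secreted as procollagens, trimmed and packed into fibrils, and the network collagen IV forms the sheets of basement membranes. FACIT chains sit on fibrils, and transmembrane collagens span the plasma membrane of the cell that makes them. Many collagens need chains from different genes in 1 molecule, so the amounts of partner chains matter for which trimers can form. In lung tissue most interstitial collagen is made by fibroblasts, while epithelial cells are known for basement membrane and transmembrane collagens.

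Of the 40 genes, 36 passed the filter of 1 normalized read count in at least 3 libraries and were tested with limma-trend, with Benjamini-Hochberg adjustment over all 24560 tested genes and a threshold of 0.05. In the resistant line 18 collagen genes rose, 5 fell and 13 did not pass the test, beside 20.4% of all tested genes that rose and 21.1% that fell. In this bulk RNA, a change in the number of cells that express a chain and a change in RNA per cell cannot be told apart. The median log2 fold change was 0.97 over the 36 collagen genes and 0.01 over all tested genes. Among the 17 collagen genes averaging at least 100 normalized read counts in either group, 11 rose, 3 fell and 3 did not pass the test, beside 28.8% and 34.9% of all genes at that level that rose and fell. A change of at least 2-fold was reached by 14 of the risen and all 5 of the fallen genes, beside 7.86% and 5.72% of all tested genes. The groups did not overlap, with every resistant library above every control library, for 22 of the 36 tested collagen genes (24.7% of all tested genes), and with every resistant library below for 7 (25.4%). Among the 36, COL2A1, COL3A1, COL10A1 and COL21A1 reached 1 in all 3 resistant libraries but in fewer than 3 control libraries, and COL6A3 and COL23A1 did so the other way round, so for these 6 the filter itself leaned on the higher group. With each library's median set equal, all changes shifted down by about the same amount, the median over all tested genes was -0.12, the background became 15.1% higher and 27.1% lower, and the collagen median was 0.84. This was 1 of 15 other settings of normalization, filter, test and library choice under which the fit was repeated.

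**Figure D1:**
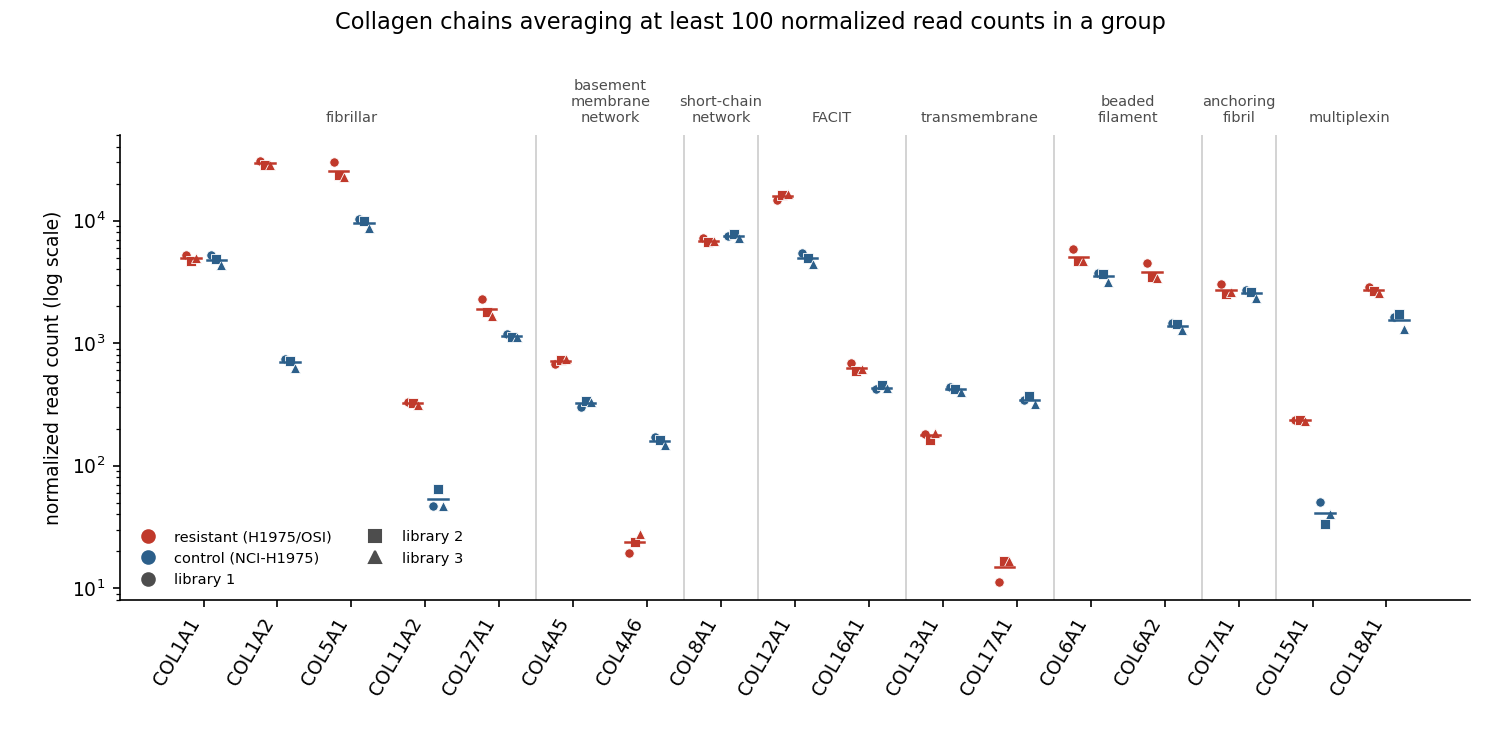
Normalized read counts (log axis) of the 17 collagen genes averaging at least 100 in either group, with 1 point per library, resistant libraries left of control libraries, grouped by collagen class. Horizontal lines are group means. COL1A2 shows the widest gap upward, with means of 29275 in resistant and 698 in control libraries, and COL17A1 the widest gap downward, with means of 14.9 in resistant and 344 in control libraries.

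Resistant library 1 differed most from its group. Its counts departed from those of the other resistant libraries with a chi-square per gene of 10.8 and 12.1, where the other resistant pair gave 2.32 and the control pairs 2.43 to 3.66. Among the 17 collagen genes at 100 or more, this library was the highest resistant library for 11 and the lowest for 4, namely COL4A5, COL4A6, COL12A1 and COL17A1. Without this library, 23 collagen genes still passed the test, 18 higher and 5 lower, with COL8A1 gained and COL5A3 lost among the lower ones. Mitochondrial genes took 5.33 to 5.66% of reads in resistant and 6.46 to 7.34% in control libraries.

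Added over the whole family, collagen transcripts reached 100942 ± 6935 normalized read counts in resistant and 39751 ± 2958 in control libraries (SD, n = 3 each). This was 0.661 ± 0.0246% of all reads in resistant and 0.245 ± 0.0157% in control libraries, with no overlap between the groups. Without COL1A2 the sums were 71666 ± 5541 in resistant and 39053 ± 2896 in control libraries, so the remaining chains together were also higher. COL1A2 made up 29.03 ± 0.621% of collagen reads in the resistant line and 1.76 ± 0.0297% in the control line. The share of COL5A1 was 25.01 ± 2.10% in resistant and 24.2 ± 0.306% in control libraries, and so changed little while the sum grew. COL8A1 took 6.82% in resistant and 18.9% in control libraries, and COL1A1 took 4.92% in resistant and 12.1% in control libraries.

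**Figure D2:**
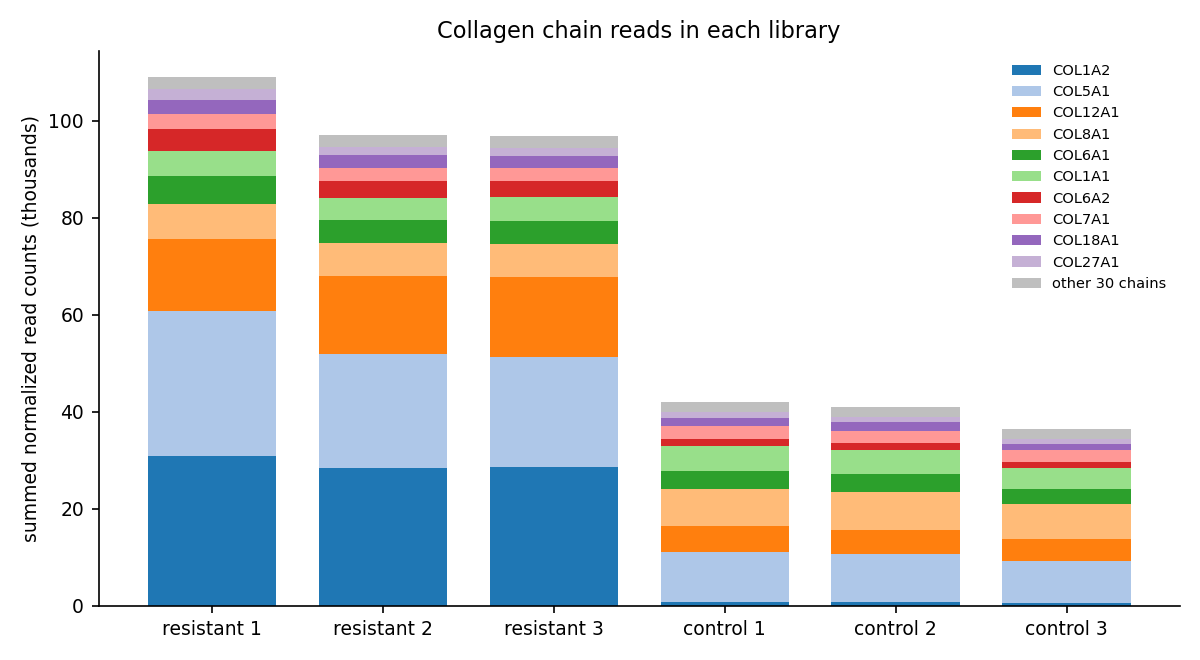
Summed normalized read counts of the collagen genes (1 stacked bar per library), split into the 10 leading genes and the other 30, resistant libraries left of control libraries. The COL1A2 segment takes 29.03% of the bar on average in the resistant and 1.76% in the control libraries, while the COL8A1 and COL1A1 segments have similar heights in both lines.

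The fibrillar class was measured through 10 genes, of which 6 rose, 1 fell and 3 did not pass the test. For comparison, 20.4% of all tested genes rose and 21.1% fell. The median log2 fold change of the class was 1.05. The summed counts of these genes were 61933 ± 5879 in resistant and 16426 ± 1349.5 in control libraries. COL1A2 codes for the alpha 2 chain of collagen I, the main fibrillar collagen of connective tissue (ENSG00000164692, chromosome 7 from 94394561 to 94431232, plus strand, GRCh38). It gave 30890.5, 28282 and 28654 normalized read counts in the resistant libraries, against 749, 718 and 628 in the control libraries, so the groups lay far apart and the libraries of each group close together. The ratio of the means was 41.9, and the log2 fold change was 5.39 ± 0.07 SE, adjusted p = 4.94e-25, the 12th largest of all tested genes.

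COL1A1, the gene of the alpha 1 chain, of which collagen I usually holds 2 per trimer beside 1 alpha 2 chain, lies on another chromosome (ENSG00000108821, chromosome 17 from 50183289 to 50201632, minus strand). It gave 5260.3, 4661 and 4968 normalized read counts in the resistant libraries, against 5198, 4876 and 4349 in the control libraries. The groups overlapped, and the log2 fold change was 0.05 ± 0.07 SE, adjusted p = 0.625, with a 95% interval of -0.10 to 0.19 and a value of -0.086 with median centring. The log2 ratio of COL1A1 over COL1A2 was -2.55, -2.60 and -2.53 in the resistant libraries, against 2.80, 2.76 and 2.79 in the control libraries. The order of the chains was opposite in the 2 lines in every library, on counts and per kilobase: COL1A2 exceeded COL1A1 in resistant libraries and COL1A1 exceeded COL1A2 in control libraries. Per kilobase of the longest coding transcript, the ratio of COL1A1 to COL1A2 was 0.136 ± 0.00349 in resistant and 5.54 ± 0.0668 in control libraries (SD, n = 3 each), and per kilobase of all exons it was 0.193 in resistant and 7.82 in control libraries. The difference between the lines was -5.34 on the log2 scale, with a two-sided exact permutation p of 0.1, the smallest that 3 against 3 libraries can give, and 0.125 after Benjamini-Hochberg adjustment over the 5 partner pairs compared.

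The chains of collagen V, which is built into the core of collagen I fibrils and helps to start them, differed in their response. COL5A1, the gene of the alpha 1 chain, gave 29840.1, 23522 and 22666 normalized read counts in the resistant libraries, against 10243, 9956 and 8679 in the control libraries. All resistant libraries lay above all control libraries, with resistant library 1 the highest, and the log2 fold change was 1.39 ± 0.10 SE, adjusted p = 1.75e-07. COL5A2, its usual partner, averaged 99.2 ± 6.98 in resistant and 76.1 ± 3.46 in control libraries (SD, n = 3 each) and missed the threshold, although the groups did not overlap (log2 fold change 0.38 ± 0.16 SE, adjusted p = 0.0667). It was called higher with edgeR on the whole reads (adjusted p = 0.0379), with limma without trend (0.0345) and with a minimum of 5 (0.0486). The log2 ratio of COL5A1 over COL5A2 was 7.99 ± 0.12 in resistant and 6.98 ± 0.06 in control libraries, which differed by 1.01 (exact permutation p = 0.1, adjusted 0.125). Per kilobase of transcript the ratio was 213 ± 17.6 in resistant and 106 ± 4.56 in control libraries, so the alpha 1 transcript was in large excess in both lines. COL5A3, a further chain of collagen V with a narrower distribution, was low, with 4.56 ± 1.19 in resistant and 11.8 ± 4.58 in control libraries (log2 fold change -1.15 ± 0.46 SE, adjusted p = 0.0484), and its call was lost in 9 of the 15 other settings, among them without resistant library 1 or 2 or control library 1 or 3 (adjusted p = 0.0781 to 0.206).

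The other fibrillar genes were lower expressed or code for minor fibrils. COL11A2, a chain of collagen XI, best known from cartilage, gave 329, 322 and 315 normalized read counts in the resistant libraries, against 47.2, 64.4 and 47.2 in the control libraries. The groups did not overlap and the log2 fold change was 2.60 ± 0.15 SE, adjusted p = 1.10e-12. COL27A1, the gene of another fibrillar collagen known from cartilage, gave 2274, 1784 and 1669 normalized read counts in the resistant libraries, against 1195, 1121 and 1132 in the control libraries, again without overlap (log2 fold change 0.72 ± 0.09 SE, adjusted p = 1.97e-06). COL3A1, the collagen III chain that accompanies collagen I in soft tissue, rose at a low level, with 11.4 ± 3.25 in resistant and 2.74 ± 2.20 in control libraries (log2 fold change 1.87 ± 0.53 SE, adjusted p = 0.00607). COL2A1, the cartilage collagen II chain, rose on 13 reads in resistant and 2 in control libraries (adjusted p = 0.0315 by limma-trend). This call was lost in 5 of the 15 other settings, among them without resistant library 2 or 3 or control library 2 (adjusted p = 0.065 to 0.125). It was not tested with a minimum of 5, a setting not counted among those 5. COL24A1 did not reach the threshold (log2 fold change 0.62, adjusted p = 0.542). COL11A1 was not analysed here.

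**Figure D3:**
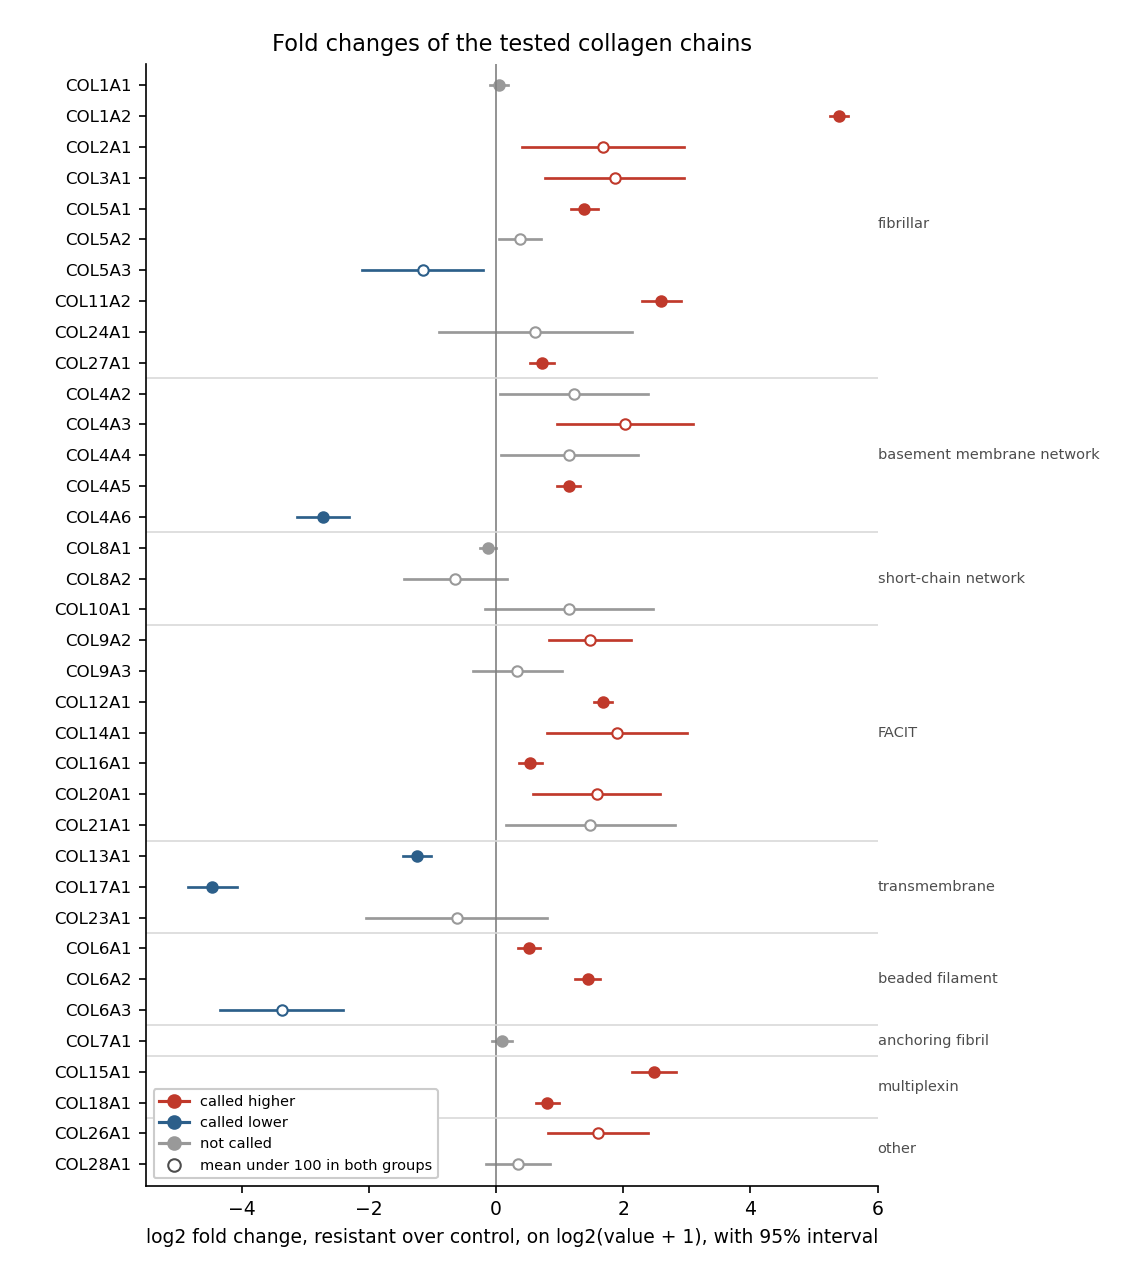
Log2 fold change, resistant over control, on the log2(value + 1) scale, with 95% intervals from limma-trend, for the 36 tested collagen genes in order of class. Red points rose, blue points fell, grey points did not pass the test, and open points average under 100 normalized read counts in both groups. COL1A2 at 5.39 and COL17A1 at -4.46 mark the ends of the range, and the COL4A5 and COL4A6 points lie on opposite sides of 0.

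The basement membrane network chains of collagen IV were represented by 6 genes, arranged in the genome as 3 pairs that are read in opposite directions from a shared start region. Of the 5 tested genes, 2 rose, 1 fell and 2 did not pass the test, beside 20.4% of all tested genes that rose and 21.1% that fell. COL4A5 and COL4A6, which can join in 1 trimer, are such a pair on the X chromosome, with deposited starts 347 bases apart (COL4A5 is ENSG00000188153, chromosome X from 108439844 to 108697545, plus strand, and COL4A6 is ENSG00000197565, chromosome X from 108155607 to 108439497, minus strand). The windows from 250 bases before to 50 bases after each RefSeq start (GRCh38.p14) are shown because the 2 genes moved in opposite directions. The values are counts per gene and do not tell from which start the transcripts began. RefSeq gives 1 window for COL4A5 (chrX:108439588-108439887, plus strand) and 2 for COL4A6, at starts 1036 bases apart (chrX:108439409-108439708, minus strand, and chrX:108438373-108438672, minus strand); each is written 5′ to 3′ on its gene's own strand, and capitals mark the 121 bases that the COL4A5 window and the first COL4A6 window share.
COL4A5: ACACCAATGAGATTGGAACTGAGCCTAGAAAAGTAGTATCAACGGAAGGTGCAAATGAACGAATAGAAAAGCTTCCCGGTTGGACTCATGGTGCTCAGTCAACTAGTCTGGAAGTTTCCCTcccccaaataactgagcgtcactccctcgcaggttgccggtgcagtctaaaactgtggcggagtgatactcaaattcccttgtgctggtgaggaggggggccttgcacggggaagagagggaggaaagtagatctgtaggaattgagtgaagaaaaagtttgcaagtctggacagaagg
COL4A6 first window: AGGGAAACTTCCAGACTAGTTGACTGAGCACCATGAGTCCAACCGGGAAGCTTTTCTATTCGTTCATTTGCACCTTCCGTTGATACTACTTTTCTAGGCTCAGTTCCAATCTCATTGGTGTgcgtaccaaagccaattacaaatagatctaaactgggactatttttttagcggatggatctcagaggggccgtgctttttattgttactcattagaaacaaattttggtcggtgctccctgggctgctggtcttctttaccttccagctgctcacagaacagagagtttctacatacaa
COL4A6 second window: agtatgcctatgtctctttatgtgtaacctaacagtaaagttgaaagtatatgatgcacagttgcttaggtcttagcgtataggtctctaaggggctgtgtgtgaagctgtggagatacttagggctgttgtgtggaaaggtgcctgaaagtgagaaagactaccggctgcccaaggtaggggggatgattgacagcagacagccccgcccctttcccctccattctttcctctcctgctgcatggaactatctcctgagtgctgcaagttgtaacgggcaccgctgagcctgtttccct

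The RefSeq starts lie 380 bases apart for COL4A5 and the first COL4A6 window, and 1416 bases apart for the second. The motif CCAAT, searched on both strands, occurred in the COL4A5 window and in the first COL4A6 window, and in 34.6% of all 35116 RefSeq windows of this length. GGGCGG, likewise searched on both strands, occurred in the second COL4A6 window and in 45.0% of all windows. TATAAA (11.5% of all windows) and TGANTCA (7.71%), both searched on both strands, had no match in these windows. These matches describe letters and not bound sites.

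COL4A5, which codes for the alpha 5 chain, gave 674, 725 and 744 normalized read counts in the resistant libraries, against 301, 339 and 329.6 in the control libraries. All resistant libraries were above all control libraries, at a ratio of means of 2.21 (log2 fold change 1.14 ± 0.09 SE, adjusted p = 1.96e-10). COL4A6, which codes for the alpha 6 chain, gave 19.4, 24.0 and 27.6 normalized read counts in the resistant libraries, against 171, 162 and 146 in the control libraries. Every resistant library lay below every control library, the control mean was 6.76 times the resistant mean, and the log2 fold change was -2.72 ± 0.20 SE, adjusted p = 5.91e-11. The log2 ratio of COL4A5 over COL4A6 was 4.93 ± 0.19 in resistant and 1.01 ± 0.18 in control libraries, which differed by 3.91 (exact permutation p = 0.1, adjusted 0.125). Per kilobase of the longest coding transcript the ratio was 31.9 ± 4.11 in resistant and 2.12 ± 0.263 in control libraries.

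The remaining collagen IV genes were close to the limit of detection. COL4A3, the alpha 3 chain known from kidney and lung basement membranes, averaged 12.7 ± 2.85 in resistant and 2.70 ± 2.15 in control libraries and rose (log2 fold change 2.03 ± 0.51 SE, adjusted p = 0.00250). Its head-to-head partner COL4A4 averaged 10.6 ± 5.85 in resistant and 4.05 ± 2.10 in control libraries and did not reach the threshold (log2 fold change 1.15, adjusted p = 0.0828); without resistant library 3 it did (1.56, adjusted p = 0.0276). COL4A2, one of the main chains of most basement membranes, averaged 9.15 ± 5.76 in resistant and 3.33 ± 2.03 in control libraries (adjusted p = 0.0843), and its partner COL4A1 was not tested, with 4 reads in the resistant and 0 in the control libraries together. The classical alpha 1 and alpha 2 chains were therefore hardly detected in either line, while COL4A5 was the most abundant collagen IV transcript per kilobase in both, at 110.2 ± 5.55 in resistant and 49.8 ± 3.05 in control libraries, above COL4A6 at 3.51 ± 0.612 in resistant and 23.7 ± 1.87 in control libraries.

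The short-chain network genes did not pass the test. COL8A1, the alpha 1 chain of the network-forming collagen VIII, gave 7151, 6706 and 6778 normalized read counts in the resistant libraries, against 7523, 7806 and 7169 in the control libraries. Each resistant library was below each control library, but by little, and the log2 fold change was -0.12 ± 0.06 SE, adjusted p = 0.106, with a 95% interval of -0.25 to 0.00; with quantile normalization it was 0.0028. With each library's median set equal it was called lower (log2 fold change -0.26, adjusted p = 0.00088), as it was without resistant library 1 (-0.15, adjusted p = 0.00781). COL8A2, its partner chain, averaged 9.13 ± 0.970 in resistant and 15.5 ± 6.54 in control libraries (adjusted p = 0.206), and COL10A1, the collagen of growing cartilage, averaged 3.59 ± 1.17 in resistant and 1.38 ± 1.59 in control libraries (adjusted p = 0.165).

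The FACIT class, whose members bind the surface of fibrils, had 9 genes. Of the 7 tested, 5 rose, none fell and 2 did not pass the test, beside 20.4% and 21.1% of all tested genes. The median log2 fold change of the class was 1.48. COL12A1, which codes for collagen XII, a large protein on collagen I fibrils, gave 14825, 16241 and 16405 normalized read counts in the resistant libraries, against 5442, 4992 and 4399 in the control libraries. The groups did not overlap, resistant library 1 was the lowest of its group, and the log2 fold change was 1.68 ± 0.07 SE, adjusted p = 4.95e-15. COL16A1, a chain found in small amounts on fibrils and near basement membranes, gave 690.4, 593 and 611 normalized read counts in the resistant libraries, against 421, 453 and 427 in the control libraries. It rose by less, with a log2 fold change of 0.54 ± 0.09 SE, adjusted p = 1.97e-05.

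The other FACIT genes had few reads. COL9A2, a chain of the cartilage collagen IX, averaged 33.0 ± 6.83 in resistant and 11.1 ± 1.67 in control libraries and rose (log2 fold change 1.48 ± 0.31 SE, adjusted p = 4.26e-04), whereas COL9A3, another chain of the same trimer, averaged 26.0 ± 9.61 in resistant and 20.9 ± 9.53 in control libraries and did not pass the test (adjusted p = 0.469). Their log2 ratio overlapped between the groups, at 0.38 ± 0.81 in resistant and -0.82 ± 0.46 in control libraries (exact permutation p = 0.2, adjusted 0.2). COL14A1, which like COL12A1 binds to fibrils, averaged 11.4 ± 5.54 in resistant and 2.32 ± 1.43 in control libraries (log2 fold change 1.91 ± 0.53 SE, adjusted p = 0.00543), and COL20A1 averaged 16.4 ± 6.31 in resistant and 5.12 ± 3.19 in control libraries (log2 fold change 1.58 ± 0.48 SE, adjusted p = 0.00999). COL14A1 lost its call without resistant library 3 (adjusted p = 0.0509). COL20A1 lost its call in 4 of the 15 other settings, among them without resistant library 2 or 3 or control library 3 (adjusted p = 0.0522 to 0.0639). COL21A1 did not pass the test (adjusted p = 0.0683), and neither COL9A1, with 0 reads in resistant and 7 in control libraries, nor COL19A1, with 4 reads in resistant and 0 in control libraries, was tested.

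In the transmembrane class none of the 3 genes rose and 2 fell, beside 20.4% and 21.1% of all tested genes. The summed counts of the 3 genes were 193 ± 13.7 in resistant and 765 ± 40.2 in control libraries (SD, n = 3 each). COL17A1 codes for collagen XVII, the hemidesmosome protein that ties epithelial cells to the basement membrane (ENSG00000065618, chromosome 10 from 104031286 to 104085957, minus strand). It gave 11.2, 16.6 and 16.8 normalized read counts in the resistant libraries, against 341, 371 and 319 in the control libraries. The groups did not overlap, the control mean was 23.1 times the resistant mean, and the log2 fold change was -4.46 ± 0.19 SE, adjusted p = 5.20e-15. COL13A1, a collagen of cell contacts and neuromuscular junctions, gave 183, 162 and 184 normalized read counts in the resistant libraries, against 436, 424 and 396 in the control libraries. It fell without overlap, with a log2 fold change of -1.25 ± 0.11 SE, adjusted p = 1.16e-09. COL23A1 had few reads, averaging 1.66 ± 2.05 in resistant and 2.64 ± 1.96 in control libraries (adjusted p = 0.514).

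Collagen VI forms beaded filaments from 3 different chains, and its genes moved in different directions. COL6A1 gave 5838, 4720.1 and 4698 normalized read counts in the resistant libraries, against 3735, 3679 and 3176 in the control libraries. COL6A2, its neighbour on chromosome 21, gave 4525, 3497 and 3392 normalized read counts in the resistant libraries, against 1473, 1422 and 1282 in the control libraries. Both rose without overlap between the groups, with log2 fold changes of 0.52 ± 0.08 SE, adjusted p = 3.88e-05 for COL6A1 and 1.44 ± 0.09 SE, adjusted p = 2.36e-09 for COL6A2. The log2 ratio of COL6A1 over COL6A2 was 0.42 ± 0.05 in resistant and 1.34 ± 0.03 in control libraries, which differed by -0.92 (exact permutation p = 0.1, adjusted 0.125), and per kilobase of transcript the ratio was 1.10 ± 0.0391 in resistant and 2.07 ± 0.0450 in control libraries. COL6A3, which codes for the remaining and longest chain of the common trimer, gave 1.02, 4.61 and 0.987 normalized read counts in the resistant libraries, against 31.8, 26.0 and 27.0 in the control libraries. It rested on 7 reads in resistant and 84 in control libraries, the control mean was 12.8 times the resistant mean (95% counting interval 5.77 to 31.8), and the log2 fold change was -3.37 ± 0.47 SE, adjusted p = 2.45e-06. COL6A6, a chain that can take the place of COL6A3, was not tested, with 2 reads in resistant and 3 in control libraries.

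**Figure D4:**
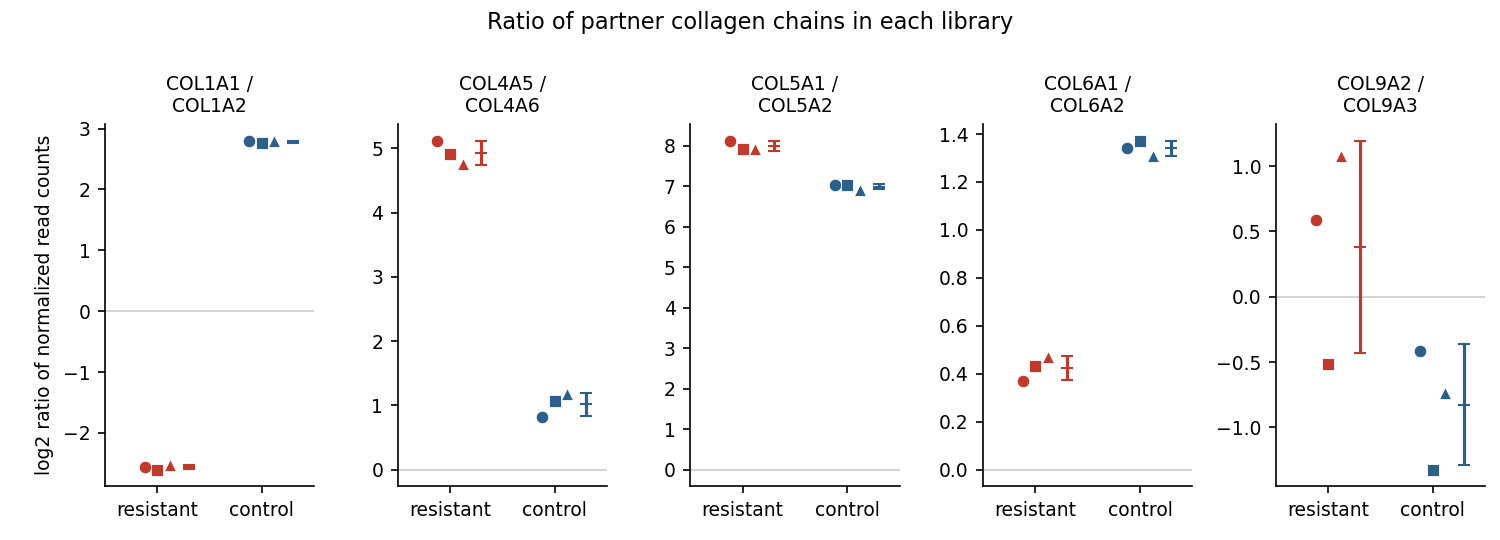
Log2 ratio of partner collagen chains in each library, resistant libraries left of control libraries, for the 5 pairs in which both genes average at least 10 normalized read counts in each group; the horizontal ticks are means and the bars SD (n = 3 each), and each panel has its own vertical axis. The COL1A1 over COL1A2 ratio lies at -2.56 in resistant and 2.78 in control libraries, and only the COL9A2 over COL9A3 ratios overlap between the groups. How often ratios of other gene pairs overlap was not determined.

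Multiplexins, whose C-terminal ends can be cut off as fragments such as endostatin, rose in both cases. Of all tested genes 20.4% rose and 21.1% fell, and of those averaging at least 100 in either group 28.8% rose and 34.9% fell. COL15A1 gave 235, 235 and 232 normalized read counts in the resistant libraries, against 50.3, 33.3 and 40.5 in the control libraries. The groups did not overlap and the log2 fold change was 2.49 ± 0.17 SE, adjusted p = 1.84e-11. COL18A1, the source of endostatin, gave 2875, 2678 and 2545 normalized read counts in the resistant libraries, against 1627, 1726 and 1303 in the control libraries, with a log2 fold change of 0.81 ± 0.09 SE, adjusted p = 2.79e-07. A stretch of 1401 bases, 16.4% of the COL18A1 exons, overlaps the gene SLC19A1 on the opposite strand, and strand handling was not given in the sources used here, so reads in that stretch cannot be told apart. SLC19A1 averaged 499 ± 36.6 in resistant and 889 ± 49.6 in control libraries, opposite in direction to COL18A1.

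COL7A1, the anchoring fibril collagen of epithelial basement membranes, gave 3019.7, 2503 and 2624 normalized read counts in the resistant libraries, against 2720.0, 2595 and 2329 in the control libraries. The groups overlapped and it did not reach the threshold (log2 fold change 0.09 ± 0.07 SE, adjusted p = 0.369, 95% interval -0.06 to 0.25), and the value was -0.044 with median centring. Of the genes outside these classes, COL26A1 averaged 26.5 ± 9.98 in resistant and 7.75 ± 2.20 in control libraries and rose (log2 fold change 1.60 ± 0.38 SE, adjusted p = 0.00130), while COL28A1 averaged 37.5 ± 4.81 in resistant and 29.2 ± 1.97 in control libraries and did not pass the test (adjusted p = 0.287).

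Levels of the most abundant collagen genes were set side by side per kilobase of the longest coding transcript. On that scale COL1A2 was the highest collagen in the resistant line, at 5410.3 ± 261 in resistant and 129 ± 11.5 in control libraries (SD, n = 3 each). COL5A1 was the next there, at 2992 ± 463 in resistant and 1136 ± 98.3 in control libraries. COL8A1 led in the control line, at 1206 ± 41.8 in resistant and 1315 ± 55.9 in control libraries, but per kilobase of all exons COL5A1 led there, at 860.3 against 797 for COL8A1. COL12A1 followed in the resistant line, at 1349.8 ± 74.1 in resistant and 422 ± 44.6 in control libraries. COL6A1 stood at 1200.0 ± 154 in resistant and 833 ± 72.7 in control libraries, and COL6A2 stood at 1099 ± 181 in resistant and 402 ± 28.6 in control libraries. In the resistant line the COL6A1 mean differed from the COL8A1 mean and from the COL6A2 mean by less than the SD of COL6A1, and COL1A1 came next, at 738 ± 44.5 in resistant and 715 ± 63.6 in control libraries.

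Genes near a collagen gene were counted to see whether whole regions moved with it. Within 1000 kb of COL1A2, 16 genes were tested, of which 3 rose and 5 fell, with a median log2 fold change of 0.18 beside 5.39 for COL1A2 itself. Of all tested genes 20.4% rose and 21.1% fell. Around COL1A1, 57 genes were tested, 4 (7.02%) rose and 28 (49.1%) fell, with a median of -0.51. COL1A1 itself, at 0.05, lay in a neighbourhood where fallen genes outnumbered risen ones. Around COL17A1, 3 of 28 tested genes (10.7%) rose and 14 (50%) fell, with a median of -0.74. Around COL4A5 the 12 tested genes, COL4A6 among them, had a median of 0.03, with 2 risen and 2 fallen. Near COL6A1, 11 of 41 tested genes (26.8%), COL6A2 and COL18A1 among them, rose and 8 (19.5%) fell, shares near those of all tested genes. The windows of COL6A1, COL6A2 and COL18A1 on chromosome 21 share genes.

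**Figure D5:**
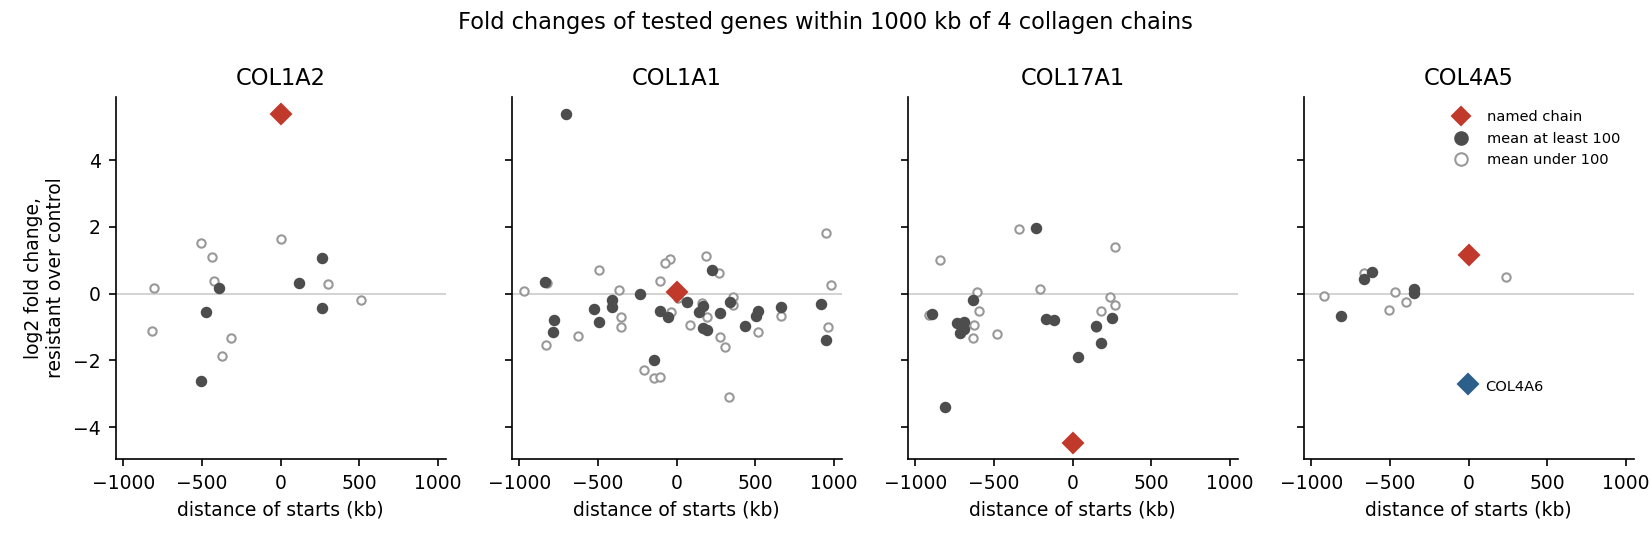
Log2 fold change, resistant over control, of tested genes within 1000 kb of 4 collagen genes, against distance from the collagen gene's start in kb; the collagen gene is marked at 0, with COL4A6 in blue beside COL4A5, and open points average under 100 normalized read counts. COL1A2 at 5.39 lies above its neighbours, whose median is 0.18, and COL17A1 at -4.46 lies below neighbours with a median of -0.74.

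Genes that modify, export, process and bind collagen were examined in 6 lists. Over all lists 34 of the 56 tested genes rose, 6 fell and 16 did not pass the test, with a median log2 fold change of 0.37. This stands beside the same 20.4% and 21.1% of all tested genes. Among all genes averaging at least 100 normalized read counts in either group, 28.8% rose and 34.9% fell. Of the 56, COLGALT2, TLL1, LUM, BGN and PRELP reached 1 normalized read count in all 3 libraries of 1 group only, so for these 5 the filter leaned on the higher group. Among the prolyl and lysyl hydroxylases and their complex partners, which modify the chains in the endoplasmic reticulum, 9 of 12 rose and none fell. P4HA1, a catalytic subunit of prolyl 4-hydroxylase, averaged 5129 ± 530.1 in resistant and 2351 ± 50.7 in control libraries (log2 fold change 1.12 ± 0.07 SE, adjusted p = 4.41e-12). PLOD1, a lysyl hydroxylase, averaged 10088 ± 899 in resistant and 5400.2 ± 292 in control libraries (log2 fold change 0.90 ± 0.07 SE, adjusted p = 1.24e-10). The prolyl 3-hydroxylases P3H1 and P3H2 rose by 0.42 and 0.39 on the log2 scale. Of 12 genes of glycosylation, chaperoning and export, 6 rose and none fell. SERPINH1, which codes for the collagen chaperone HSP47, averaged 20289.7 ± 2179.5 in resistant and 12539 ± 494 in control libraries (log2 fold change 0.69 ± 0.07 SE, adjusted p = 1.15e-08). The coat genes SEC23A and SEC24D, which carry procollagen out of the endoplasmic reticulum, rose by 0.57 and 0.49. CREB3L1, a transcription factor known to act on the type I collagen gene Col1a1 in mouse bone, rose by 0.25 (adjusted p = 0.00434), and this call was lost with median centring (adjusted p = 0.178) and with limma without trend (adjusted p = 0.104).

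Propeptide processing genes, whose enzymes trim procollagen outside the cell, rose in 7 of 9 cases and fell in 1, with TLL1 among the 7 although it was listed at 0 in all control libraries and passed the filter through the resistant libraries alone. ADAMTS14 and ADAMTS2, which cut the N-terminal propeptide, averaged 185 ± 64.1 in resistant and 28.6 ± 2.28 in control libraries for ADAMTS14 and 315 ± 33.7 in resistant and 77.7 ± 9.95 in control libraries for ADAMTS2. Their log2 fold changes were 2.60 ± 0.21 SE, adjusted p = 3.84e-10 for ADAMTS14 and 2.01 ± 0.14 SE, adjusted p = 2.81e-11 for ADAMTS2. BMP1, the C-terminal proteinase, averaged 4028 ± 411 in resistant and 1861 ± 79.5 in control libraries (log2 fold change 1.11 ± 0.07 SE, adjusted p = 8.37e-12), and its enhancer gene PCOLCE2 rose by 1.13. FURIN, a proprotein convertase, was the 1 gene that fell (log2 fold change -0.53 ± 0.11 SE, adjusted p = 0.00157), a call lost with limma without trend (adjusted p = 0.0616). Of 5 cross-linking genes 2 rose and 1 fell, beside 20.4% and 21.1% of all tested genes. LOXL2 averaged 21154 ± 3015 in resistant and 11655 ± 871 in control libraries and rose by 0.85 on the log2 scale. LOXL1 rose by 1.24 at a far lower level, averaging 40.1 ± 11.8 in resistant and 16.2 ± 3.61 in control libraries. LOXL4 fell, averaging 47.8 ± 12.8 in resistant and 472 ± 13.4 in control libraries (log2 fold change -3.31 ± 0.16 SE, adjusted p = 3.39e-14). LOX itself averaged 20655 ± 7085 in resistant and 12148 ± 281 in control libraries and did not pass the test (adjusted p = 0.100), but it did with quantile normalization (log2 fold change 0.77, adjusted p = 0.0198), with DESeq2 on the whole reads (0.77, adjusted p = 0.0231) and without resistant library 1 (0.45, adjusted p = 6.89e-12). The naming rule did not cover FURIN, TLL1, LOXL1, LOX, DDR1, ITGB1, MRC2, CD44, BGN and LUM, which were named after their values were seen because their groups are small.

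Collagen receptor genes split, with 5 of 10 tested genes risen and 3 fallen, beside 20.4% and 21.1% of all tested genes. ITGA1, an integrin alpha subunit that prefers collagen IV, averaged 1283 ± 73.1 in resistant and 239 ± 18.5 in control libraries (log2 fold change 2.42 ± 0.09 SE, adjusted p = 2.58e-16). ITGA2 and ITGA11, alpha subunits that bind collagen I, fell. ITGA2 averaged 851 ± 43.1 in resistant and 2404 ± 103 in control libraries (log2 fold change -1.50 ± 0.07 SE, adjusted p = 2.33e-14), and ITGA11 averaged 30.8 ± 6.87 in resistant and 204 ± 27.4 in control libraries (log2 fold change -2.70 ± 0.19 SE, adjusted p = 3.60e-11). DDR2, a receptor tyrosine kinase for fibrillar collagen, averaged 292 ± 6.07 in resistant and 78.7 ± 14.4 in control libraries (log2 fold change 1.89 ± 0.14 SE, adjusted p = 1.35e-10). DDR1, ITGB1 and MRC2 also rose, by 0.55, 0.22 and 0.43; the ITGB1 call was lost with median centring (adjusted p = 0.192) and with limma without trend (0.0833), and the MRC2 call with the second of these (0.074). CD44 was the remaining fallen gene (log2 fold change -1.04). Of 8 tested fibril-associated proteoglycans and organisers 5 rose and 1 fell, beside the same shares of all tested genes. FN1, the fibronectin gene, had a log2 fold change of 0.79 ± 0.07 SE, adjusted p = 1.50e-09. TNXB, SPARC and THBS1 rose by 0.77, 0.68 and 0.31, and the remaining calls, LUM and BGN, were at under 10 normalized read counts. LUM gave 1.02, 2.77 and 8.88 in the resistant libraries and was at 0 in the control libraries, and BGN gave 0, 0.923 and 1.97 in the resistant libraries against 8.21, 7.27 and 8.67 in the control libraries, so each passed the filter through its higher group alone.

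Markers of the labelled cell type and of other cells were read beside these results. All marker counts stand beside 20.4% of all tested genes that rose and 21.1% that fell. Of 9 lung adenocarcinoma epithelial markers 1 rose and 5 fell. Their sum ranged from 40681 to 47451 in resistant and from 58953 to 62262 in control libraries. The keratins KRT7, KRT8, KRT18 and KRT19 averaged 5874 or more in both lines, but KRT8, KRT18 and KRT19 fell (log2 fold changes -0.51, -0.41 and -1.18). EPCAM averaged 17.6 ± 2.03 in resistant and 379 ± 21.9 in control libraries. CDH1 averaged 116 ± 16.5 in resistant and 368 ± 39.2 in control libraries, and it fell like EPCAM. NKX2-1 was the risen gene, averaging 461 ± 21.0 in resistant and 287 ± 28.1 in control libraries. KRT7 and NAPSA did not pass the test, and SFTPB was near 0 in both lines. Of 9 fibroblast or stromal markers 5 were in the files, 2 rose and 1 fell, with sums of 170 to 214 in resistant and 128 to 195 in control libraries; the filter leaned on the higher group for LUM and FAP. THY1, LUM and FAP averaged under 10 normalized read counts in both lines, PDGFRB averaged 134 ± 15.8 in resistant and 100.04 ± 24.6 in control libraries (adjusted p = 0.0407, lost in 9 of the 15 other settings), and PDGFRA, DCN, DPT and TCF21 were not analysed here. Of 6 endothelial markers 1 rose and 1 fell, with sums of 571 to 765 in resistant and 295 to 337 in control libraries. CDH5 rose, averaging 579 in resistant and 126 in control libraries, and was the largest part of the resistant sum. PECAM1 fell, averaging 83.3 in resistant and 181 in control libraries (log2 fold change -1.10, limma-trend adjusted p = 1.24e-06). It was the largest part of the control sum. VWF, KDR, TEK and CLDN5 averaged under 10 in both lines. Leukocyte markers (5 of 7 in the files, 4 tested) had 1 risen and 1 fallen gene. Their sums were 691 to 718 in resistant and 543 to 554 in control libraries. ITGB2 rose, averaging 435 ± 18.3 in resistant and 152 ± 5.52 in control libraries. CD14 fell, averaging 266 ± 32.6 in resistant and 387 ± 0.794 in control libraries. The part of these markers, of depth and of mitochondrial share in the collagen results was not tested.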

How the data were processed

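RNA-seq libraries, 3 from H1975/OSI and 3 from NCI-H1975, were analysed from 1 table per library. The authors deposited a normalized signal per gene for 30330 Ensembl genes, mapped to GRCh38 (per the submitters' processing notes). Aligner, counter and normalization tool are not given in the sources used here. Deposited signal values of each library came in whole steps of 1 number for 100% of values (tolerance 0.001 reads), so whole reads were recovered by dividing by it, 15174126 to 16588479 per library.

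Values were analysed as log2(value + 1), a scale that shrinks the changes of sparsely counted genes. The 24560 genes with a value of 1 or more in 3 or more libraries were tested with limma-trend 3.58.1 in R 4.3.3 (robust, two-sided, group as sole term, all 6 libraries), with Benjamini-Hochberg adjustment over all of them and a threshold of 0.05. edgeR 4.0.16 and DESeq2 1.42.0 on the recovered reads, other normalizations, filters and pseudocounts, limma without trend, a replicate block and the removal of each library were tried as alternatives. The limma and edgeR steps were tested on simulated data.

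Log2 ratios of partner chains were compared by two-sided exact permutation tests over libraries, for pairs in which both genes averaged at least 10 normalized read counts in each group; of 12 pairs listed, 5 qualified. Symbols were available for 23695 genes. Promoter windows came from RefSeq on GRCh38.p14 and matched 30 of the 40 collagen genes, not COL1A1, COL1A2, COL2A1, COL3A1, COL5A2, COL6A1, COL8A1, COL9A3, COL14A1 and COL20A1. Lengths used per kilobase are those of the longest coding transcript in GENCODE 29.

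Every collagen gene is accounted for. Those averaging at least 100 in a group are given in all 6 libraries, and those from 10 to 100 by means; from each pathway list up to 4 called genes with the largest change among those at 100 or more are named. The genes, lists and classes were chosen with earlier results of these data known. The 95% interval on a ratio of reads reflects counting error alone.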

Additional observations from a re-analysis of the deposited data

How the results depend on the processing

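The 23 collagen calls became 19 with edgeR on whole reads, whose own filter left 25 collagen genes, and 24 with median centring, and ranged from 20 to 23 when 1 library was left out. Calls in the higher direction ranged from 15 to 18 over all settings and calls in the lower direction from 4 to 6. Of the 36 tested genes, 27 kept their direction and their side of the threshold in the 15 other settings that gave them a value, among them the 14 called genes at 100 normalized read counts or more. Settings whose filter dropped a gene are not counted among those in which its call was lost. The small differences of COL1A1, COL7A1 and COL8A1 changed sign: COL1A1 was -0.086 with median centring and ranged from -0.022 (without control library 3) to 0.11 when 1 library was left out, COL7A1 was -0.044 with median centring, and COL8A1 was 0.0028 with quantile normalization. None of these 3 was called after the change of sign. Pathway calls ranged from 30 (limma without trend) to 43, beside 40, and non-overlapping partner pairs from 4 to 5, beside 4. The share of non-overlapping ratios over other gene pairs was not determined. Among single tested genes, the groups did not overlap upward for 24.7% and downward for 25.4%. With the replicate number as a block, 22 collagen genes were called, 18 higher and 4 lower, with COL5A3 lost (adjusted p = 0.0558), and 40 pathway genes. The deviations of same-numbered libraries correlated at -0.00148, 0.000115 and 0.00671, and not every library correlated best with its own number. No pairing by number was visible. With 3 libraries per group, each centred on its group mean, these correlations cannot exclude one. Depth limits the 10 genes averaging under 10 normalized read counts, of which 1 was called. Over all genes, edgeR called 9531 and DESeq2 8443, beside 10204 with limma-trend.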

Other observations

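The pseudogenes COL6A4P1 and COL6A4P2, remnants of a further collagen VI chain gene, are not protein coding and so lie outside the 40 genes. COL6A4P2 averaged 17.5 ± 2.22 normalized read counts in resistant and 1.97 ± 1.63 in control libraries (SD, n = 3 each, log2 fold change 2.76, limma-trend adjusted p = 6.89e-05). COL6A4P1 averaged 16.2 ± 4.68 in resistant and 6.11 ± 2.23 in control libraries (log2 fold change 1.29, adjusted p = 0.0162). Both were named after their values were seen.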
